A study of Rattus norvegicus with 6 samples.

Results

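The genes described here are 37 named genes of glycolysis and of the response to low oxygen, matched by gene symbol in an RNA-seq table of 13526 genes. Of the 37 names, 36 were listed in the table, and Pgk1 was not listed by its symbol. They comprised 14 glycolytic enzymes, 3 enzymes that set the level of fructose 2,6-bisphosphate, 7 genes of lactate and pyruvate handling, 7 genes of oxygen sensing and 5 other genes that respond to hypoxia. The rule for the genes used symbols and no measured value, but the genes were chosen with earlier results of these data known.

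Primary rat vascular smooth muscle cells (VSMCs) were cultured in osteogenic media (OM), a medium with 10 mM β-glycerophosphate and 3.5 mM CaCl2 that drives these cells to calcify. The OM plus EMPA group (n = 3) also received 1 µM empagliflozin, a glucose-lowering drug that blocks SGLT2, the glucose carrier of the kidney tubule, and the OM group (n = 3) did not. The sample titles and the table's columns abbreviate the medium as Pi, a name the study's text uses for a separate phosphate treatment, while the treatment protocol of the same samples names OM, which is followed here. The labels give 5 days of treatment for both groups, and the study's text also gives another duration. The comparison asked which transcripts differed with empagliflozin in cells that were all under osteogenic conditions, so a group in ordinary medium was not part of it. According to the study's methods the cells were cultured from the thoracic aorta of male rats and used after several passages. Nothing in the sources says whether the 3 libraries of a group came from separate animals or separate cultures, so the p-values below measure only the spread between these libraries, which may be technical.

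Glycolysis converts glucose to pyruvate in the cytosol, and lactate dehydrogenase and the monocarboxylate transporters then dispose of pyruvate as lactate. When oxygen is low, the prolyl hydroxylases of the EGLN family no longer mark the alpha subunits of hypoxia-inducible factor (HIF) for breakdown by the VHL complex. The stabilised alpha subunit pairs with ARNT and raises transcription of most glycolytic enzymes and of genes such as Vegfa, Bnip3 and Egln3 itself. Smooth muscle cells of the artery wall are known for producing much lactate even when oxygen is plentiful.

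Of the 36 genes, 4 had lower transcript levels in the OM plus EMPA group and 1 had a higher level, and 31 did not pass the test. The genes that fell were Pfkp, a phosphofructokinase, Eno2, an enolase, Egln3, a HIF prolyl hydroxylase, and Ndrg1, a stress-responsive gene of cell differentiation. The gene that rose was Vegfa, the growth factor of blood vessel formation. The 4 lower genes made up 11.1% of the 36, and among all 12564 genes tested 4.86% were lower. The 1 higher gene was 2.78% of the 36, and 2.06% of all genes tested were higher. The median log2 fold change, OM plus EMPA minus OM, was -0.04 over the 36 genes and -0.05 over all genes tested. Values are in TPM, the share of a library's transcripts that a gene makes up, corrected for transcript length, and fold changes are on the log2(TPM + 1) scale, which understates the change of low genes. The test was limma's moderated test with Benjamini-Hochberg adjustment over all tested genes, at an adjusted p of at most 0.05. With median-ratio scaling 3 of the 36 genes were lower and 3 higher, without the variance trend 1 was lower and 1 higher, and leaving 1 library out gave 1 to 3 lower and 0 to 1 higher.

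In the OM plus EMPA group 611 of all genes tested were lower and 259 were higher, a split that turned to 380 lower and 393 higher when libraries were scaled by median ratios in place of the deposited scale. Mitochondrially encoded transcripts made up 10.3% to 10.9% of TPM with empagliflozin and 8.0% to 9.69% in OM. The VSMC label was checked against 10 markers, of which Acta2, Tagln and Cald1 were abundant in all 6 libraries, Myocd was under 1 TPM in every library and Des was not listed. Cnn1 and Lmod1 were lower than these 3, at means of 29.77 and 12.93 TPM with empagliflozin and 17.0 and 6.57 TPM in OM. Of the 8 VSMC markers tested, 5 rose with empagliflozin and 3 did not pass. Among these 3, Myh11, at 15.83 TPM against 17.92 TPM in OM, had the only negative log2 fold change (-0.17). The summed level of the listed markers was 3442 to 3987 TPM against 2562 to 3087 TPM in OM. Most of that sum was Tagln, at means of 2052 TPM with empagliflozin and 1528 TPM in OM. Of 10 fibroblast and adventitial markers 9 were listed, and their summed level was 5259 to 5941 TPM against 6571 to 7325 TPM. Most of that sum was Dcn, at means of 4113 TPM with empagliflozin and 5401 TPM in OM. In every library the fibroblast and adventitial sum was above the VSMC marker sum. Dcn and Pdgfra were lower and Col14a1 higher. Of the 8 tested, 4 had a positive and 4 a negative log2 fold change. Of 10 leukocyte and macrophage markers 3 were listed, with a summed level of 145.4 to 151.9 TPM against 153.2 to 162.1 TPM, and Cd68 was lower. Ptprc and Csf1r were not listed. Only 2 of 10 endothelial markers and 1 of 6 adipocyte markers were listed, none of 5 erythroid markers was, and none of the 3 listed passed the test. The part of cell makeup and of the mitochondrial share in the results below was not tested. In bulk samples, fewer cells of a type and less RNA per cell cannot be told apart.

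Promoter sequences are shown for Pfkp and Eno2, the enzymes that fell, for Egln3, the oxygen-sensing gene that fell, and for Ldha, an abundant hypoxia-responsive enzyme that did not pass the test. Each is the 250 bases before a RefSeq transcription start on the GRCr8 assembly, written 5′ to 3′ on the gene's strand, and capitals mark ACGTG or GCGTG, the core letters that HIF is known to bind, found on either strand (CACGT and CACGC when read on the printed strand).
Pfkp, chr17:68639563-68639812, plus strand: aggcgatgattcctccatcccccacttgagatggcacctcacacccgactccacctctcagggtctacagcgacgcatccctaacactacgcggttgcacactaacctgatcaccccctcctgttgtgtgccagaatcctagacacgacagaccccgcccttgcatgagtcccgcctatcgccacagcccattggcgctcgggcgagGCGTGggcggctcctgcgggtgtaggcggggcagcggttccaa
Eno2, chr4:159267221-159267470, minus strand: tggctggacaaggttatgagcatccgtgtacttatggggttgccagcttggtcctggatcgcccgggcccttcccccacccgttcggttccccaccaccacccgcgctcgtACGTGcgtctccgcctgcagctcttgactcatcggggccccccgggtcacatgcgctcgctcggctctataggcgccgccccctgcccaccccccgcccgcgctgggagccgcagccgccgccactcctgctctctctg
Egln3, chr6:77411016-77411265, minus strand: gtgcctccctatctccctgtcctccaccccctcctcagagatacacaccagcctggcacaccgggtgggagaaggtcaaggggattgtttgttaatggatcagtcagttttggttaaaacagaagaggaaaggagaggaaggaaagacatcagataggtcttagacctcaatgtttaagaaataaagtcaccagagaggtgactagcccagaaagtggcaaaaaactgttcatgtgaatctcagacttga
Ldha, chr1:106507842-106508091, plus strand: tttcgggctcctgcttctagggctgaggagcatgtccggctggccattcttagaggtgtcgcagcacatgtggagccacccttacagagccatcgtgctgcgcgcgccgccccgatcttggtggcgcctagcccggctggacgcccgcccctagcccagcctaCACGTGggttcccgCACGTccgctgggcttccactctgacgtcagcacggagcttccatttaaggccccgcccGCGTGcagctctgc
The Pfkp window held 1 match, which was GCGTG, and the Eno2 window held 1, which was ACGTG. The Egln3 window held none, and the Ldha window held 4. In Ldha and elsewhere CACGTG was counted on both strands, so matches can overlap. RefSeq windows were found for 34 of the 37 names, with 39 windows in all, and Pgk1, Ndrg1 and Ero1a had none in the table. A match was present in 59.0% of the 39 windows and in 36.7% of all 33469 windows of the table, and the median GC content was 63.2% in the former and 51.2% in the latter. A match was present for 2 of the 3 lower genes that had a window and for 20 of the 30 genes that did not pass the test, and Vegfa had none. A match is a description of letters in this window and does not show binding.

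**Figure D1:**
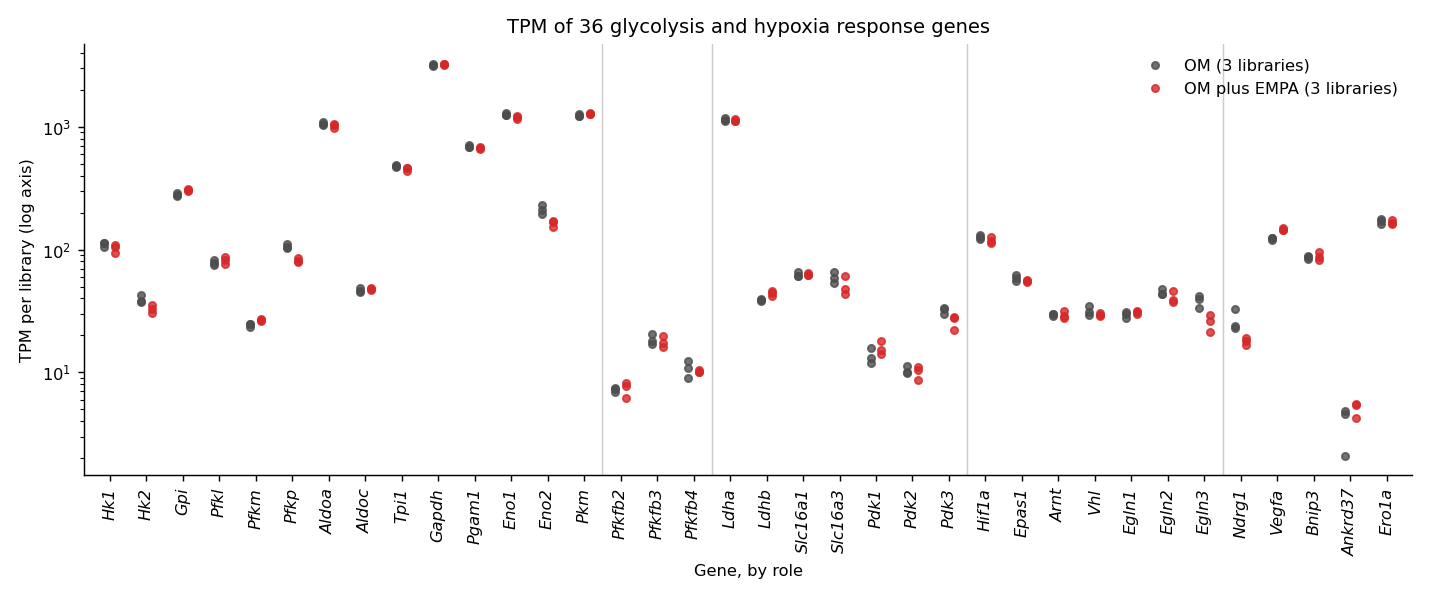
TPM of each of the 36 genes in each library on a log axis, with OM in grey and OM plus EMPA in red and the genes grouped by role between vertical lines (glycolytic enzymes, fructose 2,6-bisphosphate enzymes, lactate and pyruvate handling, oxygen sensing, other hypoxia response genes). Gapdh had the highest mean at 3217 TPM and Ankrd37 the lowest at 4.45 TPM, and for most genes the red and grey points lie close to each other.

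The most abundant of these transcripts were glycolytic enzymes and Ldha, and the combined level of the listed enzymes was nearly equal in the groups. The 14 listed enzymes summed to 8682, 8589 and 8810 TPM with empagliflozin and to 9013, 8760 and 8714 TPM in OM. The ranges overlapped, with means of 8694 ± 111.1 (SD, n = 3) and 8829 ± 161 (SD, n = 3), a difference of -1.53%. With median-ratio scaling the difference was 2.59%, so its sign depended on how libraries were scaled. The enzymes made up 0.86% to 0.903% of all TPM in a library. Gapdh was the largest part of the sum, at means of 3231 TPM with empagliflozin and 3204 TPM in OM. The sum leaves out phosphoglycerate kinase 1, which converts 1,3-bisphosphoglycerate, because its row carries no symbol. A row named phosphoglycerate kinase 1 on chromosome X had 468.6 ± 24.5 TPM with empagliflozin and 439.3 ± 11.8 TPM without (SD, n = 3), a difference of 0.09 on the log2 scale (adjusted p = 0.304 from limma).

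By mean over the 6 libraries Gapdh, glyceraldehyde-3-phosphate dehydrogenase, stood first at 3217 TPM and was the only one of the 36 among the 100 most abundant genes of the table. It was at 3231 ± 20.5 TPM with empagliflozin and 3204 ± 59.1 TPM in OM (SD, n = 3). Pkm, the pyruvate kinase of most tissues, and Eno1, the widespread enolase, followed at 1258 and 1227 TPM, and their libraries overlapped, so that their order is not separated. Ldha, the lactate dehydrogenase subunit that favours lactate, at 1133 TPM had libraries that overlapped those of Eno1. Aldoa, the main aldolase, lay below Ldha in every library, at 1041 TPM. Pgam1, phosphoglycerate mutase, at 683 TPM, Tpi1, triosephosphate isomerase, at 465.3 TPM and Gpi, glucose-6-phosphate isomerase, at 291.2 TPM each stood apart from its neighbours. Hexokinase and phosphofructokinase transcripts were lower, with Hk1 at 106.5, Pfkp at 94.1, Pfkl at 80.17, Hk2 at 36.22 and Pfkm at 25.56 TPM, where the libraries of Pfkp overlapped those of Hk1 and those of Pfkl and Hk1 lay above Pfkl in every library.

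None of the 7 enzymes above 200 TPM passed the test, and their 95% intervals allowed folds from 0.884 to 1.16. The log2 fold changes were 0.01 for Gapdh, 0.05 for Pkm, -0.07 for Eno1, -0.06 for Aldoa, -0.05 for Pgam1, -0.06 for Tpi1 and 0.13 for Gpi. Gpi, which turns glucose 6-phosphate into fructose 6-phosphate, had 302.9, 301.0 and 309.0 TPM with empagliflozin and 276.2, 286.4 and 271.4 TPM in OM, so the groups did not overlap, but its adjusted p was 0.0918 from limma. Gpi passed with an adjusted p of 0.0285 from limma when libraries were scaled by median ratios. Several of these enzymes have many processed copies in mammalian genomes, and how reads shared with such copies were counted is not stated, so the levels of Gapdh, Eno1, Pkm, Ldha, Aldoa, Pgam1 and Tpi1 are uncertain to that extent. Aldoa also had a second row within its own locus, at 12.35 TPM with empagliflozin and 12.7 TPM in OM.

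**Figure D2:**
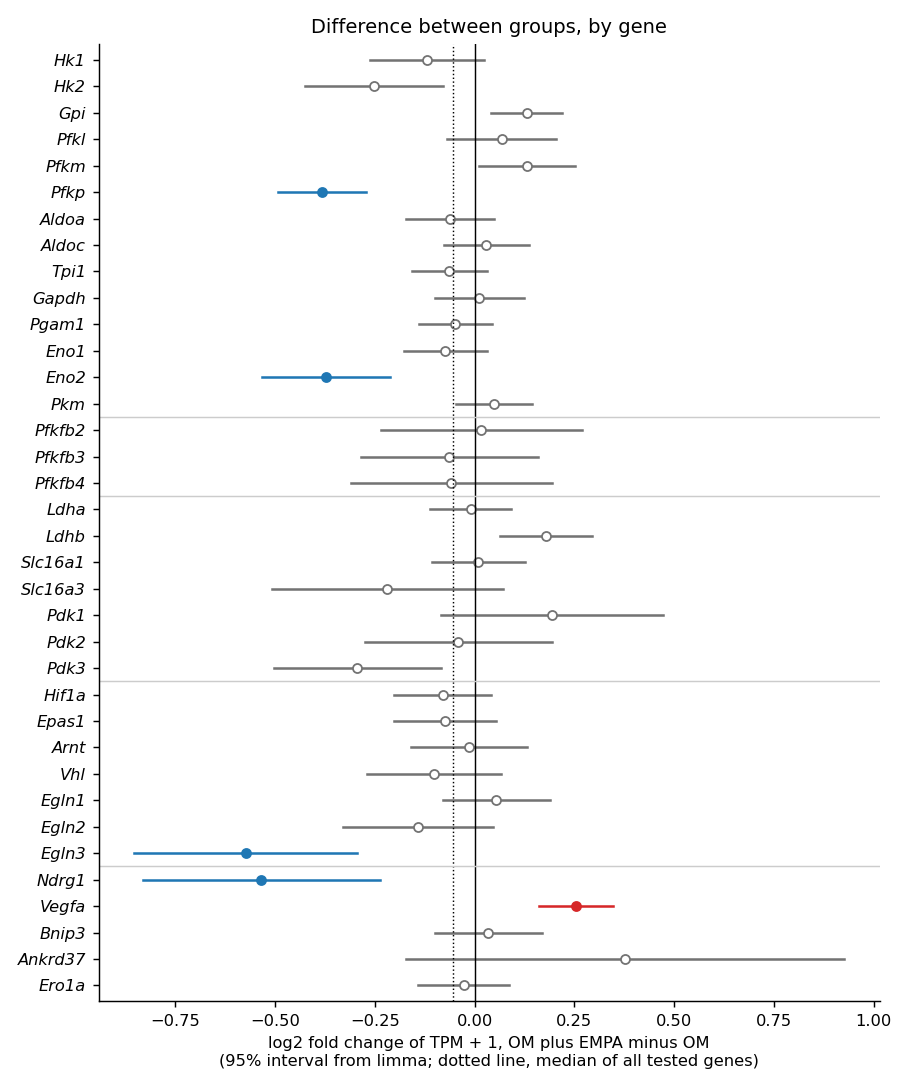
The log2 fold change of TPM + 1 for each gene, OM plus EMPA minus OM, with its 95% interval from limma, where filled points passed the test and horizontal lines separate the roles. Pfkp, Eno2, Egln3 and Ndrg1 lie below 0 in blue, Vegfa lies above 0 in red, and the dotted line is the median of all tested genes at -0.05.

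The clearest difference among the glycolytic enzymes was at phosphofructokinase, the committed step of the pathway. Pfkp, the platelet-type isoform, had 78.7, 81.1 and 84.9 TPM with empagliflozin and 110.9, 103.9 and 105.1 TPM in OM. Every OM plus EMPA library was below every OM library. The means were 81.6 ± 3.13 and 106.6 ± 3.75 TPM (SD, n = 3), and the log2 fold change was -0.38 (SE 0.0472, adjusted p = 0.00543 from limma), a fold of 0.767 with a 95% interval of 0.711 to 0.828. Pfkp passed without any 1 of the 6 libraries, with adjusted p from 0.0127 to 0.026 in limma. The other phosphofructokinase genes did not pass. Pfkl, the liver-type isoform, was at 82.1 ± 5.32 and 78.2 ± 3.49 TPM (SD, n = 3). Pfkm, the muscle-type isoform, was at 26.8 ± 0.565 and 24.4 ± 0.789 TPM (SD, n = 3), with groups that did not overlap and an adjusted p of 0.179 from limma. The files place Pfkp on chromosome 17, plus strand, from 63729758 to 63794021 (the sources used here do not give the build).

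At the enolase step, Eno2, the isoform named for neurons, fell and Eno1 did not pass the test. Eno2 had 169.0, 151.7 and 169.5 TPM with empagliflozin and 228.7, 195.1 and 211.7 TPM in OM, and the groups did not overlap. The means were 163.4 ± 10.1 and 211.8 ± 16.8 TPM (SD, n = 3), with a log2 fold change of -0.37 (SE 0.0693, adjusted p = 0.0224 from limma). Eno1 had 1207, 1156 and 1227 TPM against 1292, 1241 and 1242 TPM, also without overlap, and an adjusted p of 0.371 from limma. The call for Eno2 was lost in limma without OM plus EMPA replicate 1 (adjusted p = 0.0506), OM plus EMPA replicate 2 (0.0695), OM replicate 1 (0.0619) or OM replicate 3 (0.0725). It stayed without OM replicate 2 (0.0204) and without OM plus EMPA replicate 3 (0.0461), and was lost without limma's variance trend (0.0603). The files place Eno2 on chromosome 4, minus strand, from 157572088 to 157580980.

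At the entry of the pathway neither hexokinase passed. Hk2, the inducible hexokinase, had 35.6, 30.4 and 32.9 TPM with empagliflozin and 42.7, 37.7 and 38.0 TPM in OM. The groups did not overlap, and the log2 fold change was -0.25 with a 95% interval of -0.42 to -0.08. The adjusted p was 0.0907 from limma. Hk2 passed with the replicate number added to the fit (adjusted p = 0.0232 from limma), but whether the numbers pair the libraries is not settled. An unnamed gene on the other strand, at 1.38 TPM with empagliflozin and 1.1 TPM in OM, overlaps the start of Hk2. The strand setting of the counting is not stated. Hk1, the constitutive hexokinase, was at 102.1 ± 7.54 and 110.8 ± 4.41 TPM (SD, n = 3), with an adjusted p of 0.287 from limma. Aldoc, the brain-type aldolase, was at 47.7 ± 0.998 and 46.7 ± 1.58 TPM (SD, n = 3), with an interval of -0.08 to 0.14 on the log2 scale.

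The bifunctional enzymes Pfkfb2, Pfkfb3 and Pfkfb4, which make and break fructose 2,6-bisphosphate, the main activator of phosphofructokinase, were low and did not pass the test. Pfkfb3 was at 17.7 ± 1.92 TPM with empagliflozin and 18.5 ± 1.74 TPM in OM (SD, n = 3). Pfkfb4 was at 10.2 ± 0.286 and 10.8 ± 1.71 TPM, and Pfkfb2 at 7.37 ± 1.07 and 7.22 ± 0.272 TPM (SD, n = 3). The groups overlapped for all 3 genes, and their intervals on the log2 scale ran from -0.31 at the lowest bound to 0.27 at the highest.

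Among the genes of lactate and pyruvate handling none of 7 passed the test. Ldha had 1115, 1113 and 1160 TPM with empagliflozin and 1172, 1112 and 1127 TPM in OM, and the groups overlapped. Its log2 fold change was -0.01, with a 95% interval of -0.11 to 0.09. Ldhb, the subunit that favours the return of lactate to pyruvate, had 44.3, 42.3 and 46.1 TPM against 38.2, 39.4 and 39.2 TPM. The Ldhb groups did not overlap, and its log2 fold change was 0.18 with an interval of 0.06 to 0.29 and an adjusted p of 0.0759 from limma. With median-ratio scaling Ldhb passed, with an adjusted p of 0.0285 from limma. The Ldha locus overlaps Tsg101 on the other strand, which was at 90.61 TPM with empagliflozin and 108 TPM in OM.

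Neither lactate transporter passed the test. Slc16a1, a monocarboxylate transporter of most tissues, was at 62.7 ± 1.68 and 62.3 ± 3.10 TPM (SD, n = 3), an interval of -0.11 to 0.13 on the log2 scale. Slc16a3, the transporter of lactate-exporting cells, varied more, with 43.7, 48.0 and 61.4 TPM with empagliflozin and 53.5, 58.3 and 65.6 TPM in OM. Its interval on the log2 scale, -0.51 to 0.07, was the widest among the lactate genes, and its locus overlaps Csnk1d on the other strand.

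The pyruvate dehydrogenase kinases, which switch off the entry of pyruvate into the mitochondrial cycle, did not pass the test, and their values lay on different sides of 0. Pdk3 had 27.5, 22.3 and 28.1 TPM with empagliflozin and 32.5, 30.2 and 33.2 TPM in OM, without overlap. Its log2 fold change was -0.29 (adjusted p = 0.0998 from limma). With the replicate number added to the fit Pdk3 passed, as Hk2 did (adjusted p = 0.0299 for Pdk3 from limma). Pdk1 had 15.1, 18.1 and 14.0 TPM against 12, 15.7 and 13.2 TPM, with overlap and a log2 fold change of 0.19 (95% interval -0.08 to 0.47). Pdk2 was at 10.1 ± 1.25 and 10.4 ± 0.717 TPM (SD, n = 3).

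Ratios of isoforms within a library do not depend on how libraries were scaled, and 12 pairs of genes were compared in that way. In 4 pairs the groups did not overlap. Pfkp to Pfkl was 1.02, 0.989 and 0.971 with empagliflozin and 1.48, 1.27 and 1.35 in OM. Eno2 to Eno1 was 0.14, 0.131 and 0.138 against 0.177, 0.157 and 0.17. These are the pairs of the enzymes that fell, and the ratios use the same TPM values, so they are not separate evidence for those calls. How often other pairs of genes separate the groups was not tested. Ldha to Ldhb was 25.2, 26.3 and 25.1 against 30.7, 28.2 and 28.7, and Pdk3 to Pdk2 was 2.47, 2.56 and 2.69 against 3.29, 2.99 and 2.96. In a two-sided exact permutation test each of the 4 had p = 0.1, the smallest that 3 libraries against 3 can give, and an adjusted p of 0.3 over the 12 pairs. Hif1a to Epas1 was 2.15 ± 0.137 and 2.16 ± 0.222 (SD, n = 3), with an exact p of 1.

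**Figure D3:**
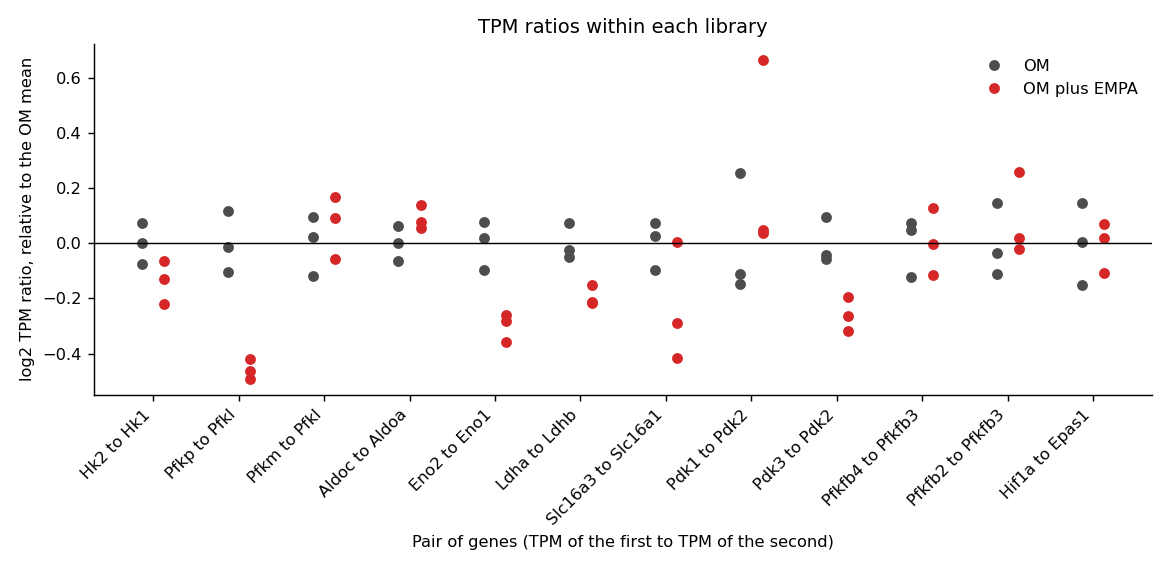
The log2 ratio of TPM between 2 genes in each library, for 12 pairs, relative to the mean of the OM libraries (0 line), with OM in grey and OM plus EMPA in red. The red points lie below all grey points for Pfkp to Pfkl, Eno2 to Eno1, Ldha to Ldhb and Pdk3 to Pdk2, and the groups overlap in the other pairs.

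Among the 7 genes of oxygen sensing, Egln3 fell and the HIF subunits did not pass the test. Egln3 encodes the prolyl hydroxylase PHD3, which HIF itself induces. It had 26.0, 21.5 and 29.3 TPM with empagliflozin and 41.9, 33.6 and 39.8 TPM in OM. All OM plus EMPA libraries were below all OM libraries, with means of 25.6 ± 3.92 and 38.4 ± 4.32 TPM (SD, n = 3). The log2 fold change was -0.57 (SE 0.121, adjusted p = 0.0332 from limma), a fold of 0.672 with a 95% interval of 0.554 to 0.816 and the lowest log2 fold change of the 36 genes. The call was lost in limma without OM plus EMPA replicate 1 (adjusted p = 0.0795), OM plus EMPA replicate 2 (0.079), OM replicate 1 (0.105) or OM replicate 3 (0.101). It stayed without OM replicate 2 (0.0321) and without OM plus EMPA replicate 3 (0.0311), and was lost without limma's variance trend (0.0687). The files place Egln3 on chromosome 6, minus strand, from 71650297 to 71675766.

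The other prolyl hydroxylases did not pass. Egln1, which encodes PHD2, the main oxygen sensor of most cells, was at 30.8 ± 0.948 TPM with empagliflozin and 29.7 ± 1.65 TPM in OM (SD, n = 3). Egln2, which encodes PHD1, was at 40.7 ± 4.55 and 44.8 ± 2.26 TPM (SD, n = 3), with a log2 interval of -0.33 to 0.05. Vhl, the recognition subunit of the ligase that degrades HIF alpha subunits, was at 29.4 ± 0.879 and 31.7 ± 3.01 TPM (SD, n = 3). The groups overlapped for these 3 genes.

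Hif1a, the widely expressed alpha subunit, had 126.0, 113.5 and 118.4 TPM with empagliflozin and 131.3, 121.2 and 125.9 TPM in OM. The groups overlapped, and the log2 fold change was -0.08 with a 95% interval of -0.20 to 0.04. Epas1, the alpha subunit HIF-2α, was at 55.6 ± 1.28 and 58.7 ± 3.74 TPM (SD, n = 3), with an interval of -0.20 to 0.05. Arnt, the shared beta subunit, was at 29.4 ± 2.17 and 29.6 ± 0.544 TPM (SD, n = 3), with an interval of -0.16 to 0.13. The alpha subunits are controlled mainly through protein breakdown, and no protein was measured here.

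Of the 5 other hypoxia response genes Vegfa rose, Ndrg1 fell and 3 did not pass the test. Vegfa had 149.3, 143.8 and 145.4 TPM with empagliflozin and 124.3, 124.2 and 118.7 TPM in OM. Every OM plus EMPA library was above every OM library, with means of 146.2 ± 2.88 and 122.4 ± 3.20 TPM (SD, n = 3). The log2 fold change was 0.25 (SE 0.0399, adjusted p = 0.0122 from limma), a fold of 1.19 with a 95% interval of 1.12 to 1.27. The call was lost without OM replicate 3, with an adjusted p of 0.0513 from limma, and stayed without any 1 of the other libraries. The files place Vegfa on chromosome 9, plus strand, from 14955300 to 14970641.

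Ndrg1 had 18.9, 16.6 and 17.9 TPM with empagliflozin and 32.8, 23.7 and 23.1 TPM in OM. The groups did not overlap, and OM replicate 1 stood well above the other OM libraries. The means were 17.8 ± 1.15 and 26.6 ± 5.44 TPM (SD, n = 3), and the log2 fold change was -0.53 (SE 0.128, adjusted p = 0.0488 from limma). Ndrg1 did not pass in limma without any 1 library, with adjusted p from 0.0504 without OM replicate 1 to 0.151 without OM plus EMPA replicate 2, the others being 0.0889 without OM plus EMPA replicate 1, 0.109 without OM plus EMPA replicate 3, 0.063 without OM replicate 2 and 0.0655 without OM replicate 3. It did not pass with median-ratio scaling either, with an adjusted p of 0.066 from limma, or without the variance trend, with 0.089. The files place Ndrg1 on chromosome 7, minus strand, from 98684487 to 98725880.

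The remaining hypoxia genes overlapped between the groups. Bnip3, a mitophagy receptor, was at 88.4 ± 6.14 and 86.2 ± 2.65 TPM (SD, n = 3), with a log2 interval of -0.10 to 0.17. Ero1a, the oxidase that drives disulfide formation in the endoplasmic reticulum, was at 166.8 ± 7.05 and 170.0 ± 7.05 TPM (SD, n = 3), with an interval of -0.14 to 0.09. Ankrd37, a small ankyrin repeat gene, was the lowest of the 36, at 5.44, 5.48 and 4.28 TPM with empagliflozin and 4.58, 4.82 and 2.10 TPM in OM. Its interval, -0.17 to 0.93 on the log2 scale, was the widest of all and allowed a fold of up to 1.90.

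**Figure D4:**
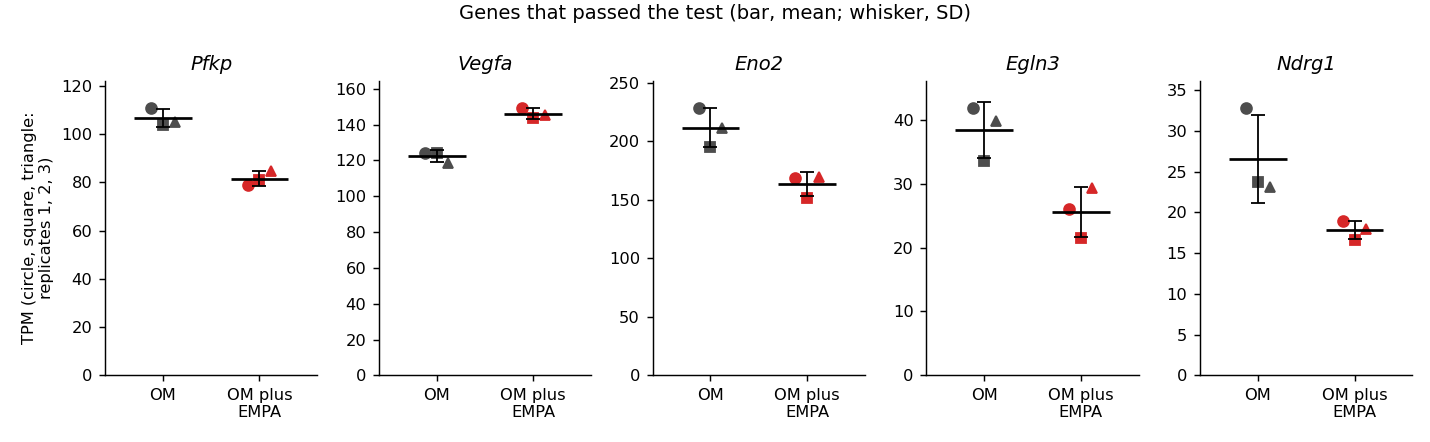
TPM per library for the 5 genes that passed the test, ordered by p, with replicates 1, 2 and 3 as circle, square and triangle, the mean as a bar and the SD as a whisker, on axes that start at 0. Pfkp, Eno2, Egln3 and Ndrg1 were lower in every OM plus EMPA library (red) than in any OM library (grey), and Vegfa was higher.

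In 14 of the 36 genes the groups did not overlap, 9 of them lower and 5 higher with empagliflozin. Of all 12564 genes tested, 22.5% were lower without overlap and 7.85% were higher without overlap. Apart from the 5 that passed, these were Eno1, Pgam1, Tpi1, Hk2 and Pdk3 on the lower side and Pkm, Gpi, Ldhb and Pfkm on the higher side. Of the 31 genes that did not pass the test, 19 had a 95% interval within 1.2-fold in either direction and 30 had one within 1.5-fold, Ankrd37 being the exception.

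Other genes of the same pathways were taken from 6 lists with 133 names, of which 107 genes were tested. Of these 5 were lower (4.67%) and 2 were higher (1.87%), close to the 4.86% and 2.06% of all genes tested, and the median log2 fold change was -0.02. None of 11 tested genes of pyruvate entry into mitochondria, 9 of the pentose phosphate pathway or 16 of glycogen and UDP-glucose metabolism passed. Of 13 other glycolytic enzymes and lactate transporters, Slc16a7, a high-affinity monocarboxylate transporter, fell from 4.91 ± 0.318 to 3.14 ± 0.170 TPM (SD, n = 3), a difference of -0.51 on the log2 scale (adjusted p = 0.0231 from limma). The glucose transporters on these lists, Slc2a1 and Slc2a3, did not pass. Both were lower with empagliflozin without overlap of the groups, as were 22.5% of all genes tested. Slc2a1 was at 58.9 ± 3.08 and 64.7 ± 0.839 TPM and Slc2a3 at 40.7 ± 3.85 and 46.5 ± 2.54 TPM (SD, n = 3), with adjusted p of 0.154 and 0.185 from limma.

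Of 15 other regulators of the HIF pathway only Cited2, which competes with HIF for the coactivators CBP and p300, passed the test. It had 61.8, 45 and 47.9 TPM with empagliflozin and 102.3, 74.2 and 86.6 TPM in OM, and the log2 fold change was -0.76 (SE 0.142, adjusted p = 0.0229 from limma). Of 43 other HIF target genes 3 fell (6.98%, against 4.86% of all genes tested) and 2 rose (4.65%, against 2.06%). Angptl4, a secreted inhibitor of lipoprotein lipase, had 62.2, 58.5 and 52.6 TPM against 91.2, 89.3 and 82.1 TPM, a log2 fold change of -0.59 (SE 0.0703, adjusted p = 0.00467 from limma). Plin2, a coat protein of lipid droplets, was at 100.8 ± 2.45 and 127.2 ± 12.2 TPM (SD, n = 3), a log2 fold change of -0.33. Vldlr, a lipoprotein receptor, rose from 44.9 ± 7.27 to 70.3 ± 8.26 TPM (SD, n = 3), a log2 fold change of 0.64, and Ddit4, an inhibitor of mTORC1 induced by stress, from 43.9 ± 4.20 to 59.7 ± 7.28 TPM, a log2 fold change of 0.43. Kdm3a, a histone demethylase, fell by 0.24 on the log2 scale with an adjusted p of 0.0488 from limma.

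Of these 7 genes Angptl4 passed in limma without any 1 library, with adjusted p from 0.011 to 0.0227, and the other calls were each lost in at least 4 of the 6 fits that left 1 library out. Slc16a7 stayed only without OM replicate 1 (0.0494), and the highest adjusted p was 0.0842 without OM replicate 3. Cited2 stayed without OM replicate 2 (0.0216) and without OM plus EMPA replicate 1 (0.0212), Vldlr without the same libraries (0.0105 and 0.0363), Plin2 without OM replicate 1 (0.0425) or OM replicate 2 (0.031), and Ddit4 without OM plus EMPA replicate 2 (0.0296). Kdm3a stayed in none, with adjusted p from 0.0799 to 0.148. Without the variance trend Cited2 (0.0546), Vldlr (0.0551), Kdm3a (0.0688), Plin2 (0.073) and Ddit4 (0.0879) were lost.

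**Figure D5:**
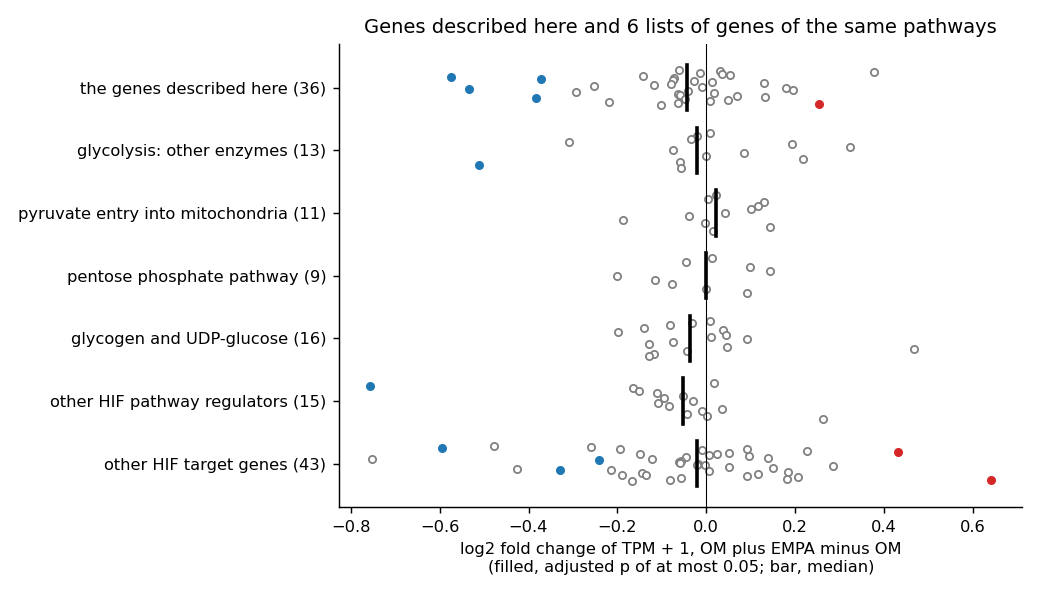
The log2 fold change of TPM + 1, OM plus EMPA minus OM, for the 36 genes described here and for 6 lists of other genes of the same pathways, with 1 point per gene, filled where the adjusted p was at most 0.05, and a bar at the median. The medians lie between -0.05 and 0.02, and the filled points are 9 lower genes in blue and 3 higher genes in red.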

How the data were processed

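RNA of 6 libraries was sequenced as read pairs. The authors deposited a table of TPM values per gene, and DESeq2, RSEM, HISAT2 2.0.5 and fastp stand in the submitters' notes on processing with no role given. The genome build and the strand setting are not given in the sources used here. Columns of the authors' own comparison (fold change, p-value, false discovery rate) and a second table that is a subset of the first were not used. TPM keeps no depth, so sequencing depth is unknown and no counting interval was set.

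The 12564 genes (of 13526) whose mean reached 1 TPM were fitted on log2(TPM + 1) in limma 3.58.1 (R 4.3.3) with group as the only term and a variance trend. Adjustment was by the Benjamini-Hochberg method over all tested genes. Isoform ratios were tested by two-sided exact permutation. Where a symbol had more than 1 row, the row with the higher mean was used. The fit was tested on simulated data with independent noise for each gene, so shifts shared within a library were not part of that test. Every gene of the set was named, and from each other list at most 4 genes that passed, by smallest p. Slc2a1, Slc2a3 and Kdm3a were named after their values were seen. The genes and lists were chosen with earlier results of these data known. Promoters came from RefSeq on GRCr8, whose coordinates were not mixed with those of the files. Figures used matplotlib 3.10.9.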

Additional observations from a re-analysis of the deposited data

How the results depend on the processing

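Of the 36 genes, 3 were lower and 3 higher with median-ratio or upper-quartile scaling, where Ndrg1 was lost and Gpi and Ldhb were gained. Without mitochondrially encoded genes 3 were lower and 1 higher. Without the variance trend 1 was lower (Pfkp) and 1 higher (Vegfa), and Eno2, Egln3 and Ndrg1 were lost. At an adjusted p of 0.01 the counts were 1 and 0, at 0.1 they were 6 and 3, and with a further limit of 1.5-fold they were 0 and 0. Leaving 1 library out gave 1 to 3 lower and 0 to 1 higher. Same-numbered libraries of the groups correlated at 0.0979, 0.162 and 0.0575 in their deviations from the group means. Differently numbered libraries correlated at -0.12 to 0.0153. These values do not settle whether the numbers pair the libraries, and the main fit took no pairing. With the replicate number as a replicate block, 6 of the 36 genes were lower, Hk2 and Pdk3 being added, and 1 was higher, while 951 of all genes were lower and 449 higher.

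Of the other pathway genes, 3 were lower and 3 higher with median-ratio scaling, 4 and 4 with upper-quartile scaling, 8 and 3 with the replicate block, 3 and 0 without the variance trend, 1 and 0 at 0.01, 9 and 3 at 0.1, and 2 and 1 with the 1.5-fold limit. Leaving 1 library out gave 1 to 4 lower and 0 to 1 higher. Among all genes the median-ratio scaling gave 380 lower and 393 higher, upper-quartile scaling 384 and 403, no variance trend 366 and 154, and leaving 1 library out 245 to 438 and 80 to 216. The summed enzyme difference of -1.53% became 2.59% with median-ratio scaling and 0.407% without mitochondrially encoded genes.

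Signs turned only in genes that did not pass. With median-ratio scaling the log2 fold change was 0.049 for Ldha, 0.011 for Pgam1, 0.032 for Ero1a, 0.044 for Arnt and 0.013 for Pdk2. With upper-quartile scaling it was 0.054 for Ldha, 0.0029 for Aldoa, 0.016 for Pgam1, 0.0011 for Tpi1, 0.037 for Ero1a, 0.049 for Arnt, 0.000265 for Pfkfb4 and 0.018 for Pdk2. Without mitochondrially encoded genes it was 0.018 for Ldha, 0.000711 for Ero1a and 0.014 for Arnt. Leaving 1 library out gave ranges of -0.069 to 0.030 for Arnt, -0.017 to 0.081 for Bnip3, -0.061 to 0.0015 for Ero1a, -0.00093 to 0.026 for Gapdh, -0.030 to 0.012 for Ldha, -0.11 to 0.052 for Pdk2, -0.050 to 0.13 for Pfkfb2, -0.14 to 0.0061 for Pfkfb3, -0.17 to 0.043 for Pfkfb4 and -0.013 to 0.049 for Slc16a1. The causes were not tested. The pseudocount of 0.1 and a filter of 1 TPM in every library left the counts of lower and higher genes as they were, and without a filter Ndrg1 did not pass. With 3 libraries a group, small differences in genes of few TPM could not be resolved, and the depth behind them is unknown.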
